A study of Homo sapiens with 6 samples.

Results

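The glycolysis and pentose phosphate genes described here are 39 genes chosen by name from a table of 58735 genes, and each name matched exactly 1 row. They cover glucose entry, glycolysis, lactate production and export, pyruvate entry to the mitochondrion, the pentose phosphate pathway with the synthesis of phosphoribosyl pyrophosphate, and 2 enzymes of the gluconeogenic direction. RNA was sequenced from MDA-MB-231 cells, a human line of triple-negative breast cancer labelled as wild type, after 24 h with vehicle or with Salvia chinensis Benth (SCH) at 100 mg/l, with 3 samples in each group. SCH was a freeze-dried water extract of the herb, dosed by the weight of raw herb. What the vehicle contained is not given in the sources used here. The sample labels give RPMI-1640 as the medium of both groups, whereas the methods of the study give DMEM for this line, and these media differ in glucose. The series describes the samples as biological repeats.

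Glycolysis splits glucose into pyruvate, first spending and then regaining ATP, and lactate dehydrogenase turns pyruvate into lactate, which leaves the cell through monocarboxylate transporters. Tumor cells are known for running this route at a high rate even with oxygen present. The pentose phosphate pathway branches off at glucose 6-phosphate. Its oxidative arm makes NADPH, and its non-oxidative arm exchanges sugars between ribose 5-phosphate, needed for nucleotides, and glycolysis.

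The total count on genes was 20291379, 18714240 and 18334857 in the vehicle samples and 16836369, 17979434 and 18414924 in the SCH samples. Levels within a gene are given as CPM, counts scaled to the size of the library after TMM normalization, and levels between genes as FPKM, which also divides by gene length. The groups were compared with edgeR's quasi-likelihood test over 14736 genes, and a gene was called raised or lowered at an adjusted p (Benjamini-Hochberg over those genes) under 0.05. Changes are log2 ratios of SCH over vehicle from this test (log2 fold changes), given with their standard error (SE). The line carried its known markers, with vehicle means of 1406 CPM for VIM, 1562 CPM for AXL and 999.7 CPM for CD44. VIM and AXL were themselves lowered after SCH (log2 ratios -0.56 and -0.84) and CD44 was not called. The further line markers CAV1 and MSN were also lowered (-1.17 and -0.19). Of the receptor transcripts that define the subtype, 2 were near 0, with 1 to 4 counts of ESR1 and 0 or 1 of PGR in any sample. ERBB2 had a vehicle mean of 71.3 CPM and was raised after SCH (log2 ratio 0.29). The luminal breast genes KRT18 and GATA3 had vehicle means of 431 and 13.7 CPM and were lowered (-0.80 and -0.79). FOXA1, also luminal, had a vehicle mean of 4.10 CPM and was raised (1.16). Of the leukocyte markers, PTPRC had 34 to 39 counts in the vehicle samples and 3 to 9 in the SCH samples, CD3D was at 0 in all 6 samples and LYZ had no more than 3 counts. Their part in the results was not tested.

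All 39 genes passed the filter on low counts. After SCH, 21 of them were lowered and 8 were raised, and 10 were not called. Across all tested genes 58.7% were called, 29.4% lowered and 29.3% raised, against 53.9% lowered and 20.5% raised here. The median log2 ratio was -0.22 over the 39 genes and -0.0034 over all tested genes. These genes were also more abundant than most, with a median of 108 CPM against 24.6 CPM for all tested genes. Calls can depend on abundance, which was not tested here. The 6 samples did not overlap between the groups in 31 of the 39 genes, against 62.4% of all tested genes. Together the 39 genes took 1.68% ± 0.0437 of all counts (SD, n = 3) after vehicle and 1.38% ± 0.0133 (SD, n = 3) after SCH. In cultures measured whole, a smaller number of cells with these transcripts and less RNA per cell cannot be told apart.

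**Figure D1:**
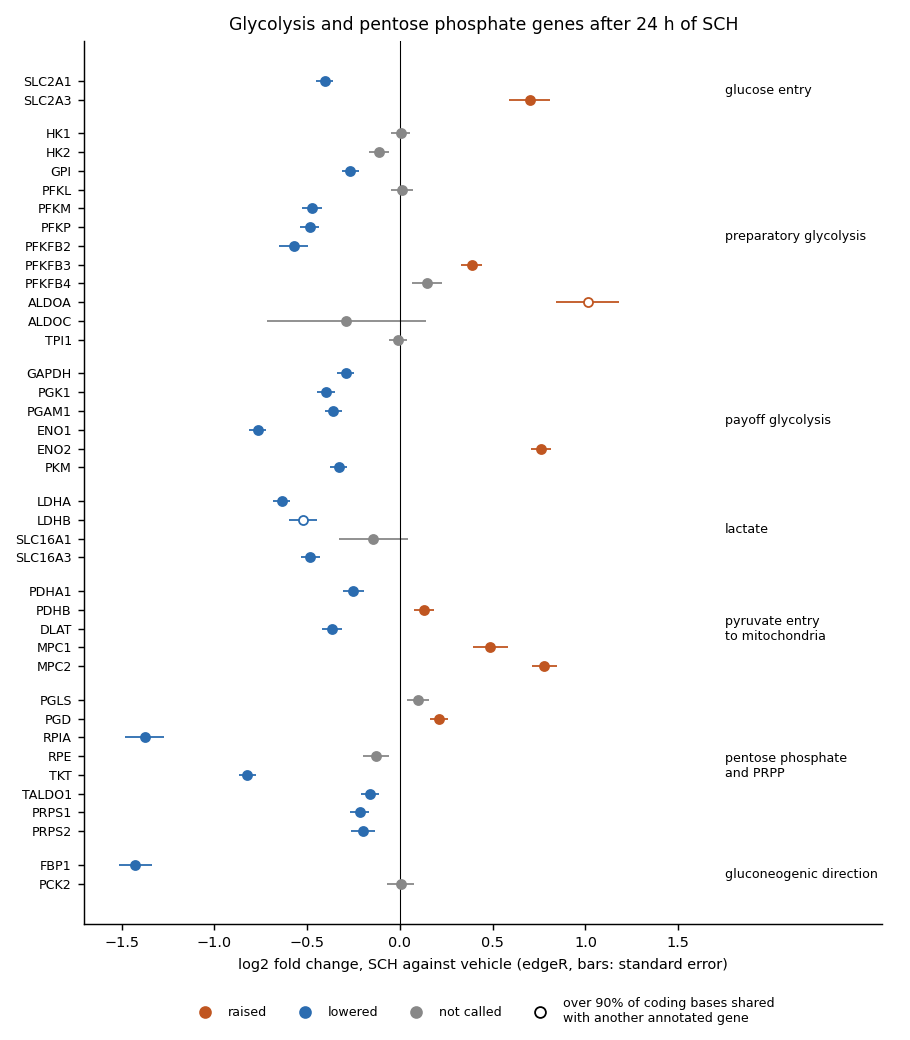
Log2 ratio of each of the 39 genes after SCH against vehicle (horizontal axis, edgeR, bars are standard errors), in the order of the pathway, with filled points colored by call and open points for ALDOA and LDHB. The 5 called glycolytic genes from GAPDH to PKM other than ENO2 lie left of 0, ENO2 and the pyruvate carriers MPC1 and MPC2 lie right of 0, and FBP1 and RPIA lie farthest left.

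The counts of ALDOA and LDHB need a limit before the results. ALDOA encodes the aldolase of most tissues and LDHB the heart-type subunit of lactate dehydrogenase. In release 29 of GENCODE, 93.8% of the coding bases of ALDOA and 93.5% of those of LDHB also lie in exons of another protein-coding gene on the same strand, AC093512.2 and AC010197.2. How reads in shared exons were assigned is not given in the sources used here. ALDOA had 3.95, 3.73 and 3.21 CPM after vehicle and 9.29, 6.39 and 6.41 CPM after SCH, and AC093512.2 had only 71 to 98 counts in any sample. The log2 ratio of ALDOA was 1.01 ± 0.17 SE (edgeR adjusted p = 1.84e-05). LDHB had 51.4, 51.1 and 58.5 CPM after vehicle and 41.2, 33.6 and 37.3 CPM after SCH, with a log2 ratio of -0.52 ± 0.076 SE (edgeR adjusted p = 2.78e-06). The groups did not overlap in either gene, but how far the counts give the level of either gene cannot be told from the deposited files. Without both, 20 genes were lowered and 7 raised of 37.

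The promoters of RPIA, TKT and FBP1, the genes with the largest falls, are shown because these lead the changes of the pentose phosphate pathway and of gluconeogenesis. The sequences are the 250 bases before the start of the gene in RefSeq (GRCh38.p14). Capitals mark GGGCGG, the core of the GC box, and ACGTG or GCGTG, the core of the hypoxia response element, searched on both strands. RPIA lies at chr2:88691423-88691672 on the plus strand, TKT at chr3:53256023-53256272 on the minus strand and FBP1 at chr9:94639519-94639768 on the minus strand.
RPIA: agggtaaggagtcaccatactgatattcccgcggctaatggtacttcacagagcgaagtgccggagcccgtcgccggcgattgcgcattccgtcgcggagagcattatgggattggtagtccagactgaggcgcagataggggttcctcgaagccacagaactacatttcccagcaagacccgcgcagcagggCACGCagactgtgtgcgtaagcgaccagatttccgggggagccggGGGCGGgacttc
TKT: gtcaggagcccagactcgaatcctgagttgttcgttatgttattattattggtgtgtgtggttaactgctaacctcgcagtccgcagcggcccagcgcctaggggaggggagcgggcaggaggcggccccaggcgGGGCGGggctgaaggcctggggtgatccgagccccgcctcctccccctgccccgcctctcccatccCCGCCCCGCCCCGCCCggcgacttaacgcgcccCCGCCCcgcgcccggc
FBP1: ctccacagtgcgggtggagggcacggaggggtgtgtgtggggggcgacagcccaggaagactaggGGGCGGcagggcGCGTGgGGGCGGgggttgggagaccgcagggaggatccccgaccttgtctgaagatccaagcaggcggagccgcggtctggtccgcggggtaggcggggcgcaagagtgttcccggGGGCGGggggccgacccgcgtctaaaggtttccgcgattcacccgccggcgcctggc

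The window of TKT held 5 matches to GGGCGG and none to ACGTG or GCGTG, that of FBP1 held 3 and 1, and that of RPIA 1 and 1. Of the 39 genes, 36 had a promoter in the RefSeq table, and GGGCGG was found in 29 of them (80.6%), against 42.3% of 27305 promoters of all kinds. ACGTG or GCGTG was found in 20 (55.6%, against 43.1%), and CACGTG, the E-box, which contains ACGTG, in 4 (11.1%, against 6.49%). The 27305 promoters were not matched to the 39 genes by level or type of gene. Whether these differences are particular to the pathway was not tested. The RefSeq start lay 29, 30 and 731 bases from the end of the deposited gene for RPIA, TKT and FBP1, so for FBP1 the windows of other starts would differ. Among the other members the distance reached 100015 bases for LDHB and 193509 for PGK1. These matches are letters in a window, and binding was not measured.

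Glucose enters through the facilitative transporters GLUT1 (SLC2A1) and GLUT3 (SLC2A3), which moved in opposite directions. SLC2A1, by far the more abundant per length, fell from 433 ± 17.2 CPM (SD, n = 3) to 327 ± 8.42 CPM (SD, n = 3), a log2 ratio of -0.41 ± 0.047 SE (edgeR adjusted p = 1.14e-07). SLC2A3 had 8.25, 11.4 and 10.1 CPM after vehicle and 16.97, 15.5 and 15.6 CPM after SCH. Each SCH sample was above each vehicle sample, and the log2 ratio was 0.70 ± 0.11 SE (edgeR adjusted p = 9.76e-06). The share of SLC2A3 in the summed FPKM of both rose from 1.73% ± 0.271 to 3.63% ± 0.113 (SD, n = 3 each), so GLUT1 remained the main transcript.

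In the preparatory phase, where glucose is phosphorylated and cleaved, 4 of 12 genes were lowered, 2 were raised, 1 of them ALDOA, and 6 were not called, so that 6 of 12 were called, against 58.7% of all tested genes. The hexokinases, which trap glucose in the cell, were not among the called genes. HK1 had a log2 ratio of 0.0032, with a 95% interval from -0.094 to 0.10, and HK2 of -0.11, with an interval from -0.22 to -0.0092 and an adjusted p of 0.0714 (edgeR). With upper quartile scaling HK2 was called lowered (log2 ratio -0.14, edgeR adjusted p = 0.0228). GPI, the isomerase of glucose 6-phosphate, was lowered by a small amount (log2 ratio -0.27, adjusted p = 3.58e-05 by edgeR).

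Phosphofructokinase, which commits the sugar to glycolysis, is built from platelet, muscle and liver subunits. PFKP, the platelet type, made up 80.4% ± 0.337 of the family's FPKM after vehicle (SD, n = 3), and it fell from 613 ± 44.2 CPM (SD, n = 3) to 438 ± 11.7 CPM (SD, n = 3), a log2 ratio of -0.49. PFKM, the muscle type, fell by 0.47 on the log2 scale. PFKL, the liver type, had a log2 ratio of 0.010 with a 95% interval from -0.10 to 0.13, and its share of the family went from 8.21% ± 0.0826 to 11.2% ± 0.237 (SD, n = 3 each) without overlap of the samples.

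The PFKFB enzymes make and degrade fructose 2,6-bisphosphate, the strongest activator of phosphofructokinase, and these genes split as well. PFKFB2 had 25.8, 28.4 and 29.01 CPM after vehicle and 18.7, 19.0 and 18.2 CPM after SCH. All SCH samples lay below all vehicle samples (log2 ratio -0.57 ± 0.080 SE, edgeR adjusted p = 1.56e-06). PFKFB3, which favors synthesis, rose from 71.7 ± 3.03 CPM (SD, n = 3) to 93.6 ± 2.16 CPM (SD, n = 3), a log2 ratio of 0.39. Its share of the family's FPKM went from 65.0% ± 0.250 to 72.6% ± 0.372 (SD, n = 3 each). PFKFB4 had a log2 ratio of 0.14 and was not called.

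ALDOC, the brain-type aldolase, had between 0.376 and 1.59 CPM in the 6 samples and was not called. TPI1, which interconverts the triose phosphates, had 819 ± 32.7 CPM after vehicle and 813 ± 21.3 after SCH (SD, n = 3 each). Its log2 ratio was -0.010, with a 95% interval from -0.10 to 0.081, while the enzymes that follow it in the pathway all had called genes.

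The payoff phase regains ATP, and all 6 of its genes were called, 5 lowered and 1 raised, where 58.7% of all tested genes were called and 29.4% lowered. GAPDH, the dehydrogenase of glyceraldehyde 3-phosphate, whose protein was probed on the study's blots, had 2892, 2972 and 2881 CPM after vehicle and 2311, 2377 and 2451 CPM after SCH. Every SCH sample was below every vehicle sample, with a log2 ratio of -0.29 ± 0.044 SE (edgeR adjusted p = 5.10e-06) that lay between -0.33 and -0.19 over the alternatives tried. PGK1, which makes the first ATP of this phase, fell by 0.40 on the log2 scale, the mutase PGAM1 by 0.36 and pyruvate kinase, PKM, by 0.33. The 2 splice forms of PKM are not separated in counts per gene.

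The enolases, which make phosphoenolpyruvate, moved in opposite directions. ENO1, the ubiquitous form, had 3160, 3248 and 2928 CPM after vehicle and 1816, 1806 and 1864 CPM after SCH. The SCH samples lay far below the vehicle samples and close to each other (log2 ratio -0.77 ± 0.047 SE, edgeR adjusted p = 2.66e-12). ENO2, the neuronal form, had 59.5, 62.9 and 60.5 CPM after vehicle and 104.7, 100.9 and 104.3 CPM after SCH. All its SCH samples lay above all vehicle samples (log2 ratio 0.76 ± 0.055 SE, edgeR adjusted p = 3.86e-11). The share of ENO2 in the enolase FPKM went from 2.36% ± 0.111 to 6.51% ± 0.108 (SD, n = 3 each). ENO1 therefore still held most of the enolase transcripts after SCH.

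**Figure D2:**
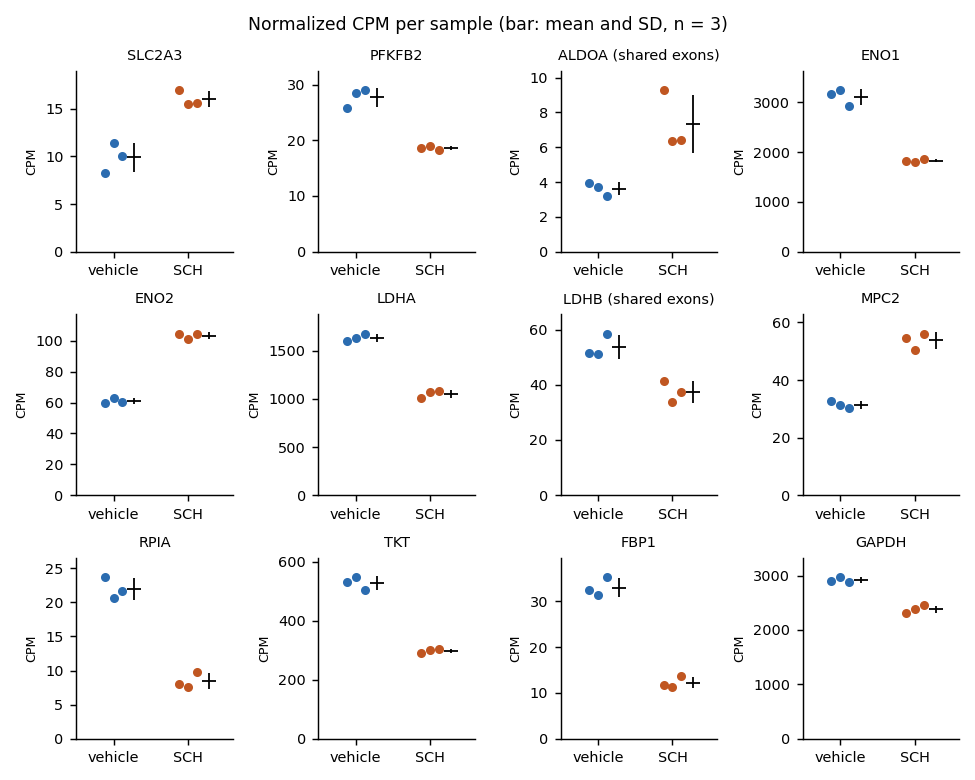
Normalized CPM (vertical axis, from 0) in each vehicle and SCH sample for the 11 called genes with an absolute log2 ratio of at least 0.5 and for GAPDH, with the mean and SD (n = 3) beside the points. The groups are apart in each panel, and ALDOA and LDHB are marked for their shared exons.

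Of the 4 genes for making and exporting lactate, 3 were lowered, among them LDHB, and 1 was not called, beside 29.4% lowered over all tested genes. LDHA, the muscle-type subunit that favors lactate, had 1595, 1630 and 1677 CPM after vehicle and 1004, 1068 and 1079 CPM after SCH. No SCH sample reached the vehicle samples, and the log2 ratio was -0.64 ± 0.046 SE (edgeR adjusted p = 4.16e-11). SLC16A3 encodes MCT4, the exporter typical of glycolytic cells, and it fell from 573 ± 38.5 CPM (SD, n = 3) to 410 ± 5.14 CPM (SD, n = 3), a log2 ratio of -0.48. SLC16A1, which encodes MCT1, had only 3.60 ± 0.692 and 3.27 ± 0.201 CPM (SD, n = 3 each) and was not called. MCT4 made up 98.95% ± 0.153 of the FPKM of both exporters after vehicle and 98.67% ± 0.0766 after SCH (SD, n = 3 each).

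Pyruvate can instead enter the mitochondrion through a carrier of MPC1 and MPC2 and be oxidized by pyruvate dehydrogenase. Both carrier genes were raised. MPC2 had 32.7, 31.2 and 30.2 CPM after vehicle and 54.6, 50.6 and 56.2 CPM after SCH. The groups were well apart, with a log2 ratio of 0.78 ± 0.067 SE (edgeR adjusted p = 8.67e-10). However, 22.5% of its exonic bases lie in exons of DCAF6 on the opposite strand, and since the kit does not mark strand those reads cannot be told apart. DCAF6 itself had a log2 ratio of 0.22. MPC1 rose from 17.9 ± 1.28 CPM (SD, n = 3) to 25.1 ± 3.33 CPM (SD, n = 3), a log2 ratio of 0.49.

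The subunits of pyruvate dehydrogenase did not move together. PDHA1 and DLAT, which encode the E1 alpha and E2 subunits, fell by 0.25 and 0.37 on the log2 scale. PDHB, the E1 beta subunit, rose by 0.13 (adjusted p = 0.0371 by edgeR). The call was lost without vehicle replicate 1 (log2 ratio 0.11, edgeR adjusted p = 0.153), without SCH replicate 1 (0.12, adjusted p = 0.0877), without SCH replicate 2 (0.14, adjusted p = 0.0770) and with upper quartile scaling (0.097, adjusted p = 0.116).

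**Figure D3:**
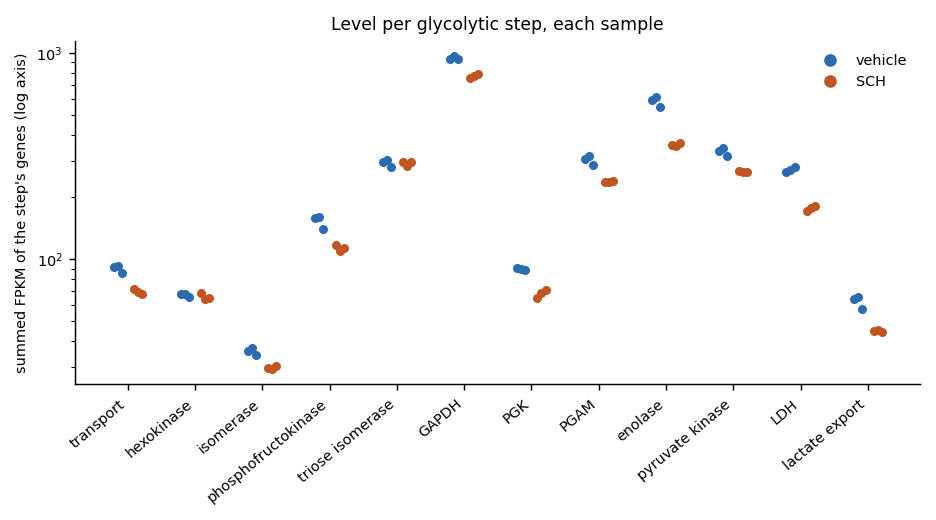
Summed FPKM of the genes of each glycolytic step (vertical log axis) in every vehicle and SCH sample, from glucose transport to lactate export, with aldolase left out for the shared exons of ALDOA. In 10 of the 12 steps the SCH samples lie below the vehicle samples, and the points of hexokinase and triose isomerase overlap, where 62.4% of all tested genes had groups that did not overlap in CPM.

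Summing the FPKM of those of the 39 genes that serve a step showed the same pattern across the pathway. Genes outside the 39 were not added, such as SLC2A6 (mean 7.57 FPKM after vehicle and 10.8 after SCH) and SLC16A7 (4.73 and 2.94). How they would change the falls was not tested. The lactate dehydrogenase step includes LDHB, with the limit given for its counts. In 10 of 12 steps, aldolase left out, all SCH samples lay below all vehicle samples (exact permutation test, two-sided p = 0.1 each, the smallest that 3 samples against 3 allow, adjusted p = 0.118 over 13 steps). For scale, the CPM of 62.4% of all tested genes did not overlap in either direction, and 6 of the 12 steps are single genes already described. The summed level of the enolase step changed by -38.3% and that of lactate dehydrogenase by -35.1%. Lactate export changed by -27.9%, phosphofructokinase by -25.8%, PGK by -23.8% and glucose transport by -22.7%. Smaller falls were seen for PGAM, pyruvate kinase, GAPDH and GPI, between -21.7% and -16.5%. Hexokinase changed by -1.68% and triose isomerase by -0.25%, with overlapping samples.

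The order of the 12 steps by level, aldolase again left out, changed little. After vehicle it ran from GAPDH (945 ± 16.6 FPKM, SD, n = 3) and enolase (584 ± 31.0) to GPI (35.7 ± 1.39). Pyruvate kinase (332 ± 14.8), PGAM (303 ± 15.7) and triose isomerase (293 ± 11.9) lay close together, and each of these neighbors overlapped with the next. Glucose transport and PGK overlapped too. After SCH, triose isomerase (292 ± 7.52) lay above pyruvate kinase (265 ± 2.47) and PGAM (237 ± 1.57) with no overlap of the samples. GPI remained the lowest of the 12 (29.8 ± 0.517). Hexokinase (66.0 ± 2.44), PGK (68.2 ± 3.02) and glucose transport (69.7 ± 2.09) were then neighbors whose samples overlapped.

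**Figure D4:**
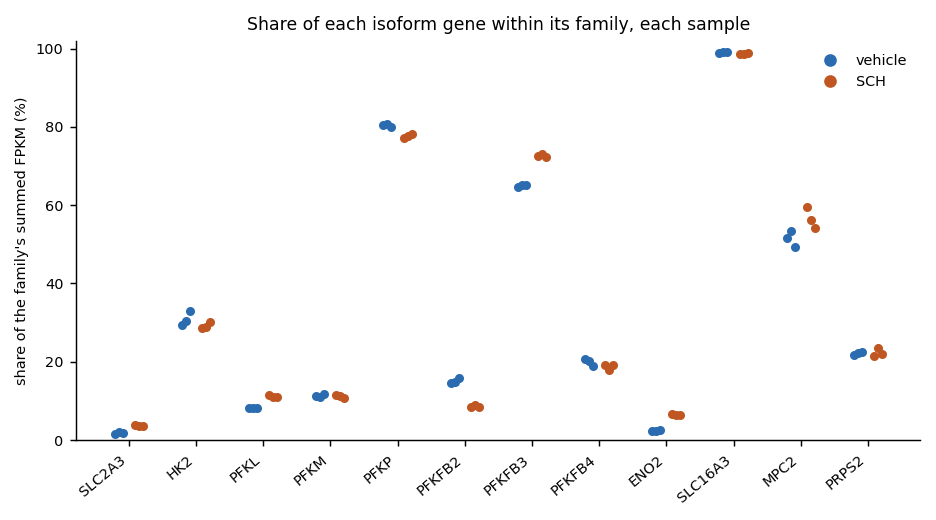
Share of each gene in the summed FPKM of its family within the 39 genes (vertical axis, percent) in every vehicle and SCH sample. The aldolases and lactate dehydrogenases are left out for shared exons. SLC2A3, PFKL, PFKFB3, ENO2 and MPC2 have higher shares after SCH, and PFKP, PFKFB2 and SLC16A3 lower ones.

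Shares within families were computed for 14 genes, and 9 had no overlap between the groups (exact permutation test, two-sided p = 0.1 and adjusted p = 0.156 over the 14 shares). Without the aldolases and lactate dehydrogenases these were 8 of 12. For scale, the CPM of 62.4% of all tested genes did not overlap either, so these counts are near that share. MPC2 went from 51.5% ± 2.04 to 56.6% ± 2.77 of the FPKM of the carrier genes (SD, n = 3 each). HK2 had 30.9% ± 1.87 and 29.2% ± 0.872 of the hexokinases (SD, n = 3 each), with overlap.

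Of the 8 pentose phosphate genes including those for phosphoribosyl pyrophosphate, 5 were lowered, 1 was raised and 2 were not called, beside 58.7% called and 29.4% lowered over all tested genes. In the oxidative arm, PGD, the dehydrogenase of 6-phosphogluconate and a source of NADPH, rose from 214.5 ± 7.36 CPM (SD, n = 3) to 248 ± 5.10 CPM (SD, n = 3), a log2 ratio of 0.21 ± 0.048 SE (edgeR adjusted p = 6.33e-04). PGLS, the lactonase before it, had a log2 ratio of 0.096 and was not called, but without SCH replicate 1 it was called raised (log2 ratio 0.15, edgeR adjusted p = 0.0394).

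In the non-oxidative arm, RPIA, the isomerase that makes ribose 5-phosphate, had 23.7, 20.6 and 21.6 CPM after vehicle and 8.03, 7.51 and 9.83 CPM after SCH. The highest SCH sample stood well below the lowest vehicle sample, and the log2 ratio was -1.38 ± 0.11 SE (edgeR adjusted p = 1.25e-10), or 0.386 times the vehicle level. TKT, transketolase, had 532, 549 and 505 CPM after vehicle and 291, 303 and 303 CPM after SCH. Its groups were apart by far more than their spread (log2 ratio -0.82 ± 0.048 SE, edgeR adjusted p = 9.62e-13). TALDO1, transaldolase, the other enzyme that moves carbon between the sugars of this arm, fell only by 0.16 on the log2 scale (adjusted p = 0.0078 by edgeR), a call that was lost without vehicle replicate 1 (adjusted p = 0.0760). RPE, the epimerase beside RPIA, had a log2 ratio of -0.13 and was not called. Of its exonic bases, 23.8% lie in exons of KANSL1L on the opposite strand, which had a log2 ratio of 0.060.

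PRPS1 and PRPS2 join ribose 5-phosphate to ATP to give the precursor of nucleotides. They fell by 0.22 and 0.20 on the log2 scale, in proportion, since PRPS2 held 22.1% ± 0.408 and 22.3% ± 0.998 of their summed FPKM (SD, n = 3 each). The call of PRPS2 was lost without SCH replicate 1 (adjusted p = 0.0697 by edgeR).

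In the gluconeogenic direction, FBP1 encodes fructose-1,6-bisphosphatase, which opposes phosphofructokinase. It had 32.5, 31.2 and 35.3 CPM after vehicle and 11.8, 11.4 and 13.6 CPM after SCH. The groups were far apart, and the log2 ratio of -1.43 ± 0.088 SE (edgeR adjusted p = 2.91e-12), or 0.372 times the vehicle level, was the largest of the 39 genes. An antisense gene, PCAT7, shares 16.3% of its exonic bases but had only 14 to 21 counts in any sample. PCK2, the mitochondrial carboxykinase that makes phosphoenolpyruvate, had 39.7 ± 2.17 and 39.9 ± 3.52 CPM (SD, n = 3 each) and a log2 ratio of 0.0050.

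Only 1 of the 39 genes, PGK1, spans more than 200 kb. The median span was 27.3 kb here and 28.3 kb over the other tested genes. The share of counts on mitochondrially encoded genes was 3.49% ± 0.0812 after vehicle and 3.32% ± 0.281 after SCH (SD, n = 3 each) and overlapped between the groups.

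A further 77 genes of neighboring carbohydrate metabolism were listed by name. Of these, 61 were tested, 15 were raised and 17 lowered (52.5% called, against 58.7% of all tested genes), and their median log2 ratio was -0.0034. By list, the counts raised and lowered were 4 and 3 of 13 isozymes and transporters, 3 and 6 of 14 genes of the hexosamine and polyol branches, and 2 and 5 of 13 genes of gluconeogenesis and glycogen. With library size as the only scaling, 21 were raised and 11 lowered, where all tested genes split into 5519 raised and 3295 lowered. Those not tested include the liver-type pyruvate kinase PKLR.

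**Figure D5:**
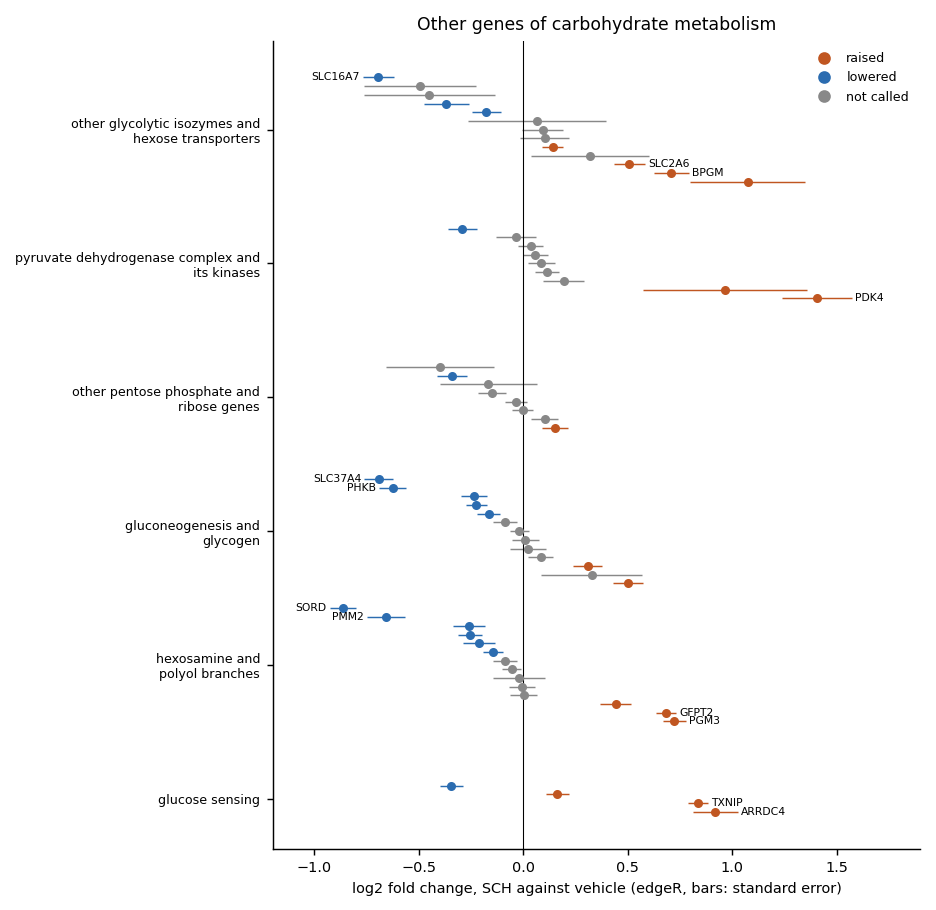
Log2 ratio (horizontal axis, edgeR, bars are standard errors) of the 61 tested genes of neighboring carbohydrate metabolism in 6 lists, colored by call, with the 12 genes described in the text named. PDK4, ARRDC4 and TXNIP lie to the right and SORD farthest to the left.

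Genes known to respond to glucose 6-phosphate through the factors MLXIP and MLX were among those raised. The list holds the factors as well, and its 4 tested genes were all called, against 58.7% of all tested genes. TXNIP, an arrestin-like protein that restrains glucose uptake, had 197, 196 and 198 CPM after vehicle and 338, 353 and 362 CPM after SCH, with no overlap (log2 ratio 0.83 ± 0.047 SE, edgeR adjusted p = 6.38e-13). Its relative ARRDC4 rose from 7.56 ± 0.334 CPM (SD, n = 3) to 14.3 ± 1.03 CPM (SD, n = 3), a log2 ratio of 0.92. MLX fell by 0.34 on the log2 scale. MLXIP rose by 0.16, a call lost with upper quartile scaling (edgeR adjusted p = 0.0501), in both fits on FPKM, without vehicle replicate 1 (adjusted p = 0.0667) and without SCH replicate 1 (adjusted p = 0.0852).

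Around pyruvate dehydrogenase, 2 of 9 genes were raised, 1 was lowered and 6 were not called (33.3% called, against 58.7% of all tested genes). PDK4, a kinase that switches the complex off, had 4.31, 2.56 and 5.45 CPM after vehicle and 10.4, 11.3 and 11.0 CPM after SCH. All SCH samples were above the vehicle samples, which varied widely among themselves (log2 ratio 1.41 ± 0.17 SE, edgeR adjusted p = 1.59e-07). The other raised gene was the kinase PDK3, on 0.432 ± 0.0698 CPM after vehicle and 0.857 ± 0.196 CPM after SCH (SD, n = 3 each), and the lowered gene was the phosphatase PDP2 (log2 ratio -0.29); both are named because they were called. The call of PDK3 was lost in 8 alternatives, among them DESeq2 (adjusted p = 0.171), no filter on low counts (edgeR adjusted p = 0.0680) and leaving out any 1 sample other than SCH replicate 3 (edgeR adjusted p between 0.0543 and 0.121). PDK1, the kinase induced in low oxygen, had a log2 ratio of -0.036.

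In the hexosamine branch, which makes the sugar donor for protein glycosylation, GFPT2 and PGM3 rose by 0.68 and 0.72 on the log2 scale, while GFPT1, the more widely expressed first enzyme, had -0.088. In the polyol branch SORD, which oxidizes sorbitol to fructose, fell by 0.86. PMM2, an enzyme of mannose supply for N-glycosylation, fell by 0.66, although 25.5% of its exonic bases are shared with exons of other genes. SLC37A4, the carrier of glucose 6-phosphate into the endoplasmic reticulum, fell by 0.69, and PHKB, a subunit of phosphorylase kinase, by 0.62. BPGM, which makes 2,3-bisphosphoglycerate, rose by 0.71, and the transporter SLC2A6 by 0.51. SLC16A7, a further monocarboxylate transporter known as MCT2, fell by 0.69. Each of these called genes had groups that did not overlap. In the list of other pentose phosphate and ribose genes 2 of 8 tested genes were called, against 58.7% of all tested genes, with H6PD lowered (log2 ratio -0.34) and PRPSAP1 raised (0.15). The call of PRPSAP1 was lost with upper quartile scaling (edgeR adjusted p = 0.111), with DESeq2, without a filter on low counts, in both fits on FPKM, and without vehicle replicate 1 (edgeR adjusted p = 0.144), SCH replicate 1 (0.121) or SCH replicate 2 (0.0825).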

How the data were processed

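Raw counts of reads per gene and FPKM values were deposited by the authors, a table of counts and a file of FPKM per sample. The libraries were made from poly-T purified mRNA with a kit that does not mark strand. The submitters' processing notes name CASAVA 1.8, HISAT2 2.0.5, featureCounts 1.5.0-p3 and DESeq2 1.20.0 and the build GRCh38. The strand setting and filters are not given in the sources used here. Within a sample FPKM was proportional to count over length, with a scale of 0.992 to 1.005 times the total count in the vehicle samples and 1.063 to 1.067 times in the SCH samples, where the TMM factors were 0.961 to 0.971 and 1.034 to 1.038.

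The counts went into edgeR 4.0.16 under R 4.3.3 (TMM, filterByExpr, quasi-likelihood test of SCH against vehicle without covariates, Benjamini-Hochberg over the 14736 tested genes). The standard error was taken as the size of the log2 ratio divided by the square root of F, and 95% intervals span 1.96 standard errors. Tests were also run on simulated data, but no result of that check is given here. The common biological coefficient of variation was 5.17%. No libraries of a group were copies, with a chi-square per degree of freedom of 2.05 to 5.29. Exon overlaps are from GENCODE 29, which holds all 58735 gene identifiers.

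Genes shown in full were the called members with an absolute log2 fold change of at least 0.5 and GAPDH. Of the neighboring genes, the 12 called genes with the largest change and a mean count of at least 50 are each given with at least a log2 ratio. Promoters were shown for 3 of the members with the largest changes, and ALDOA was passed over for its shared exons. The members and lists were chosen with earlier results of these data known. Alternatives were other scalings and filters, DESeq2 1.42.0, limma 3.58.1 on log2(FPKM + 1) and log2(FPKM + 0.1), a replicate block and leaving out each sample. Some genes of the lists are not reported here by name.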

Additional observations from a re-analysis of the deposited data

How the results depend on the processing

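Of the 39 genes, 33 stayed called, or stayed not called, under every alternative that tested them (ALDOC was not tested with at least 10 counts in every sample), and no called gene changed direction. Of the 10 genes not called, 6 took both signs, ALDOC, HK1, PCK2, PFKL, SLC16A1 and TPI1. The call changed under at least 1 alternative for HK2, PDHB, PFKFB4, PGLS, PRPS2 and TALDO1. With upper quartile scaling HK2 was called (-0.14) and PDHB was not (0.097). Of the 61 neighboring genes, the call held throughout for 42 and changed somewhere for 19. Leaving out 1 sample gave 7 to 8 raised and 20 to 21 lowered members, and 7809 to 8489 called genes overall. With library size only, the log2 ratio had a median of 0.099 over all tested genes and of -0.11 over the members, with 10 raised and 19 lowered. All genes then split into 5519 raised and 3295 lowered, against 4318 and 4332, and the neighboring genes lowered were 11 in place of 17. PFKFB4 (0.25) and PGLS (0.20) were then called raised, and TALDO1 (-0.056) and PRPS2 (-0.095) were not called. The cause was not tested. Same-numbered samples of the groups had correlations of -0.022 to 0.046 in their deviations from the group means, and differently numbered samples -0.084 to 0.066. Shared deviations of same-numbered samples were thus not seen, but whether the numbers mark paired cultures cannot be told from this. The replicate block gave 8705 called genes in place of 8650 and left 8 members raised and 21 lowered. Depth limits ALDOC and SLC16A1, whose standard errors were 0.43 and 0.19.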

Other observations

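Among the glycogen genes, GYG1, the protein primer of glycogen, was raised (log2 ratio 0.50, adjusted p = 2.24e-06 by edgeR), whereas the liver-type phosphorylase PYGL was lowered (-0.22, adjusted p = 4.60e-04 by edgeR) and the brain-type PYGB was not called (-0.019). These genes were chosen after their values were seen.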
